A study of Mus musculus with 28 samples.

Results

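Home cage control female and male mice were compared for the transcripts of the whole pituitary gland. The comparison rests on the 8 home cage control mice of the series, 4 females and 4 males, of the 28 mice sequenced. All were C57BL/6J mice aged 8 weeks that stayed in the home cage on the test day and were not restrained, and the labels name no allele or agent. The other 20 mice, 12 females and 8 males, had spent 12 hours on small platforms over water, which wakes them as they enter REM sleep (paradoxical sleep deprivation, PSD), been restrained for 20 minutes, or both, and are used here as further mice of each sex. Mice of every group, controls included, had been accustomed to the platforms beforehand, for 1 hour on each of 3 days. The sources used here do not give the estrous stage of the females. Sex is therefore compared across whatever cycle stages these females were in. Of the 32594 genes in the count table, 17663 had enough counts to be tested, and 15488 of these lie on chromosomes 1 to 19. All counts of genes below are of these autosomal genes unless the X chromosome is named.

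The pituitary sits below the hypothalamus and has 3 lobes. The anterior lobe holds the cells that secrete prolactin, growth hormone, the gonadotropins, thyrotropin and corticotropin. Peptides, dopamine and amines from the hypothalamus set the output of each of these cells through receptors, most of them coupled to G proteins, and sex steroids feed back on the same cells through nuclear receptors. The intermediate lobe consists of melanotropes, which make much of the gland's pro-opiomelanocortin, and the posterior lobe holds axon endings that release vasopressin and oxytocin, among glial cells named pituicytes.

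Totals per control mouse lay between 23077710 and 47530774 counts (median 36691234.5). One gland stood apart before any comparison of the sexes. Male 1 was below the other 7 control mice in all 5 melanotrope markers, and below the lowest of the 20 treated mice as well. Pomc, which encodes the precursor of corticotropin and melanotropin, had 11388, 58347, 49692 and 63153 CPM in males 1 to 4 and 67873, 36639, 49449 and 39107 CPM in females 1 to 4. CPM are counts scaled to the size of each library, with TMM factors (trimmed mean of M values). Pax7, a transcription factor of melanotropes, had 11.2, 51.1, 39.5 and 41.2 CPM in the 4 males against 64.03, 54.98, 51.7 and 53.5 CPM in the females. Male 1 alone was low in both genes. Of 9 posterior lobe markers, 5 were almost absent from male 1. Oxt, the oxytocin gene, had 0.169, 12.6, 9.57 and 15.3 CPM in the males, and Nkx2-1, a transcription factor of the neural lobe, had 0.0423, 3.89, 3.06 and 3.32 CPM. Rax, Col25a1 and Avp, the vasopressin gene, were likewise at 0.0681, 0.0875 and 0.0777 of the median of the other males. The remaining 4 markers of this list, the glial genes Slc1a3, Gfap, Gja1 and Aqp4, were higher in male 1 than in any other control mouse. Gfap, for example, had 18.4, 7.11, 3.20 and 6.06 CPM in the 4 males, while Gja1 was only slightly higher in male 1 (27.8 CPM, next 26.5 CPM). For each of these 4 genes the highest value among the treated mice was above male 1, up to 78.2 CPM for Gfap. Male 1 was also the highest of the 8 mice in all 4 red blood cell markers and in 4 of 6 markers of forebrain and choroid plexus, where it had 19.6 CPM of Slc17a7 against 9.48, 8.89 and 7.78 CPM in the other males. The treated mice reached 61.0 CPM of Slc17a7. The gland is labelled as a whole pituitary like the others, while its counts of intermediate and posterior lobe genes were low, so results are also given without male 1 where its removal ends a call.

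**Figure D1:**
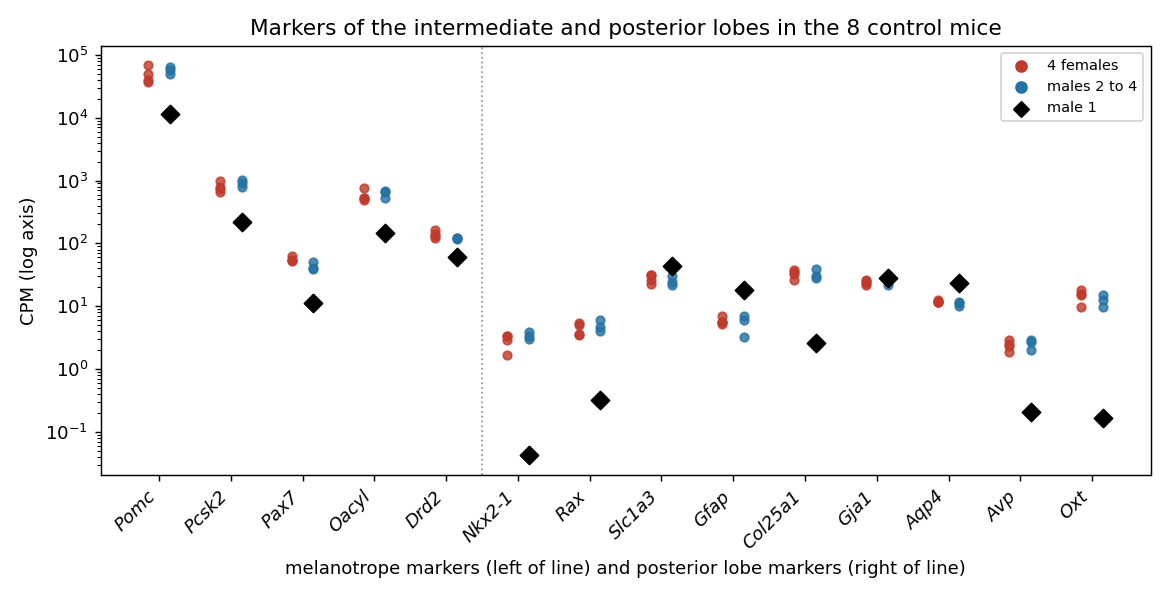
CPM (log axis) of 5 melanotrope and 9 posterior lobe markers in the 8 control mice, 1 point per mouse, with male 1 drawn as a black diamond. Male 1 lies below all others for the 5 melanotrope markers and for Nkx2-1, Rax, Col25a1, Avp and Oxt, and above all others for Slc1a3, Gfap, Gja1 and Aqp4.

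Across autosomes, 1504 genes were called different between females and males, which is 9.71% of those tested. A call needed a p of 0.05 or less after Benjamini-Hochberg adjustment in edgeR's quasi-likelihood test, and a difference of at least 1.25-fold in either direction. Log2 differences are female minus male throughout. In females 687 genes were higher (4.44%) and 817 were lower (5.28%). With libraries scaled by their totals alone, 471 were higher and 1005 lower, so that the share of higher genes among the calls went from 45.7% to 31.9%. That scaling moved the median log2 difference of all autosomal genes tested from 0.01 to -0.07. Most differences were modest, with a median size of 0.66 log2 units among the calls. Of the 1504 genes, 438 differed by at least 1 log2 unit and 117 by at least 2. Of those 117, 75 were higher in females and 42 lower. The CPM of the 4 females and the 4 males did not overlap for 1428 of the called genes (94.9%), against 19.7% of all autosomal genes tested. A high share follows from the calling, which used these same values. Without male 1, 1323 genes were called (8.51%), 630 higher (4.05%) and 693 lower (4.46%) in females, of which 1173 had been called with it, 78% of the first set and 88.7% of the second.

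The genes read here for their function come from 17 lists of pituitary hormones, receptors, peptides and signalling proteins. Of the 428 autosomal genes of these lists that were tested, 93 were called (21.7%, against 9.71% of all genes), 39 higher and 54 lower in females. Without male 1 the count was 94, with 77 genes in both. When each of the 8 mice was left out in turn, 60 of the 93 stayed called every time and 33 lost the call at least once. The lists were put together with results of these data in view, so their share is a description of the chosen genes.

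**Figure D2:**
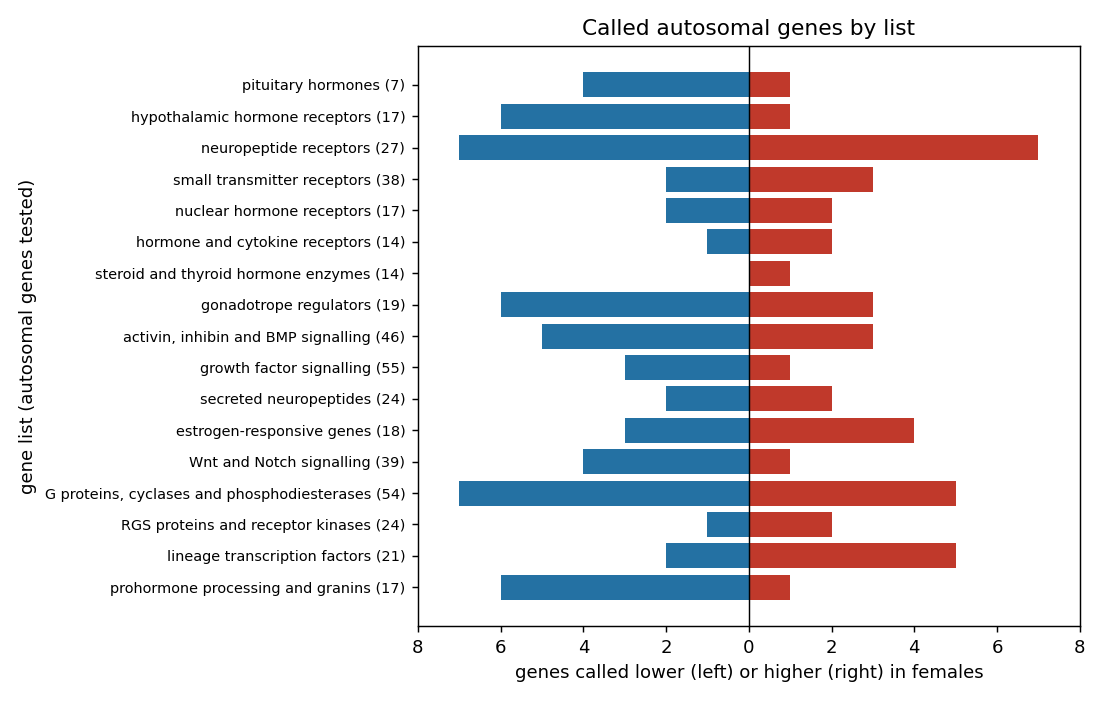
Number of autosomal genes called lower (bars to the left) and higher (bars to the right) in control females for each of the 17 lists, with the number of genes tested in parentheses. Hypothalamic hormone receptors, gonadotrope regulators and prohormone processing genes have 6 genes each on the lower side against 1, 3 and 1 on the higher side. The lower gonadotrope genes include Fshb and Lhb, which are also on the hormone list.

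Among the hormone genes themselves, prolactin, the hormone that drives milk production, was 5.05-fold higher in females, and growth hormone, the regulator of body growth, 2.33-fold higher in males. Follicle-stimulating hormone beta was 7.74-fold higher in males. Of the 7 hormone genes, 1 was called higher in females, 4 were called lower and 2 were not called (71.4% called, against 9.71% of all genes). Prl (chr13:27057570-27065205, build GRCm38, which is mm10) had 158447, 201038, 178089 and 231122 CPM in the 4 females and 39836, 34725, 41675 and 36072 CPM in the 4 males. The groups were far apart, with a log2 difference of 2.34 (SE 0.14, adjusted p = 1.04e-05). Gh (chr11:106300271-106301865) had 62707, 98144, 80222 and 86003 CPM in females and 211471, 143928, 222441 and 182971 CPM in males, with a log2 difference of -1.22 (SE 0.17, adjusted p = 0.00185). Again no female reached the lowest male. These transcripts are abundant enough to take a visible part of each library. Prl made up 18.6% ± 2.09 (SD, n = 4) of all counts in females and 3.90% ± 0.231 (SD, n = 4) in males. Gh made up 7.94% ± 1.21 in females and 19.4% ± 3.04 in males. For both shares a two-sided exact permutation test gave p = 0.0286, the smallest that 4 against 4 mice allow, and 0.0571 after adjustment over 4 shares. Pomc took 4.75% and 4.69% (exact permutation p = 0.971). In whole glands, a lower transcript level can mean fewer cells of a type or less RNA in each of them, and these cannot be told apart here.

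The gonadotropin genes differed by unequal amounts. Fshb (chr2:107056140-107059656), the subunit that gives follicle-stimulating hormone its identity, had 128, 103, 208 and 73.9 CPM in females and 1193, 899.9, 874 and 997 CPM in males, and a log2 difference of -2.95 (SE 0.28, adjusted p = 2.03e-04). The highest female was still well under the lowest male. Lhb, the matching subunit of luteinizing hormone, had 500.1, 437, 479 and 501 CPM against 793, 719.7, 629 and 761 CPM, with a log2 difference of -0.60 (SE 0.08, adjusted p = 0.00165). Its exons overlap those of Ruvbl2 on the opposite strand over 20.4% of their bases. Cga, the alpha subunit shared by the gonadotropins and thyrotropin, had 3585, 2999, 3729.9 and 2675 CPM against 5434, 4255, 4331 and 4526 CPM and a log2 difference of -0.51 (SE 0.12, adjusted p = 0.0225). The Cga call was lost without female 2 or male 4 (adjusted p up to 0.0723), and it was also lost with a lobe score as covariate (adjusted p = 0.0504). This score is the mean log2 CPM of the melanotrope and posterior lobe markers. It mostly sets male 1 apart, at 3.54 against 5.24 to 5.67 in the other control mice. Tshb, the thyrotropin subunit, overlapped completely between the sexes at 536, 261, 477 and 222 and 419, 264, 443 and 355 CPM (0.02, SE 0.27, adjusted p = 0.979). Pomc had a log2 difference of 0.08 (SE 0.42, adjusted p = 0.928), and -0.24 (adjusted p = 0.513) without male 1.

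**Figure D3:**
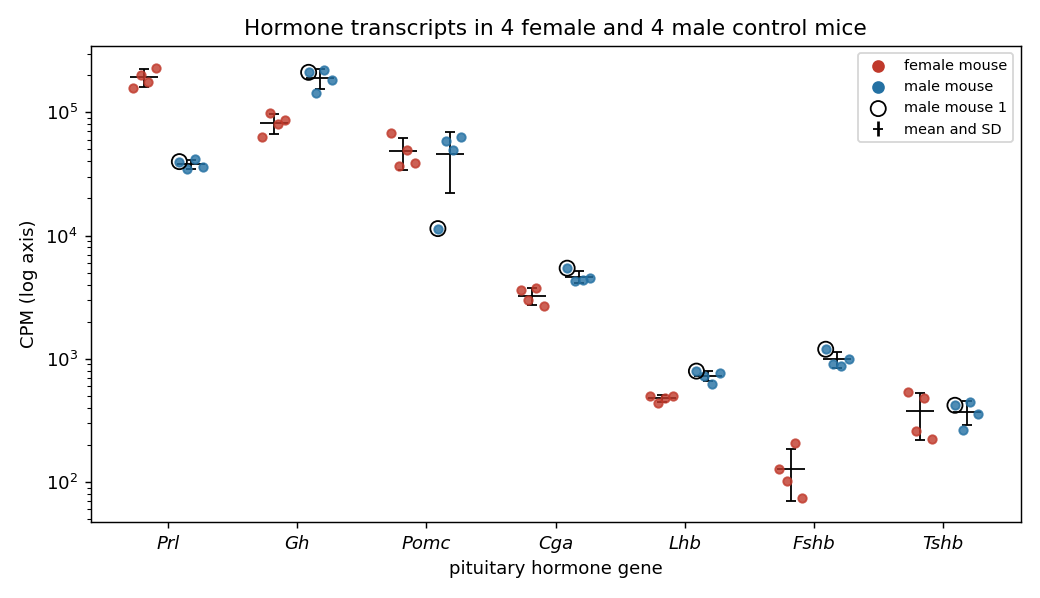
CPM (log axis) of the 7 pituitary hormone genes in the 4 female and 4 male control mice, with 1 point per mouse, mean and SD as bars, and male 1 circled. Prl lies higher in all females, Gh, Cga, Lhb and Fshb lie higher in all males, and Pomc and Tshb overlap.

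The start regions of the hormone genes at the ends of this range are shown for their letters. Each sequence is the 250 bases before the start site from RefSeq on GRCm38.p6, 5′ to 3′ on the gene's strand, with the core motif of the estrogen response element (GGTCA, or TGACC when read from the other strand) in capitals. Prl holds no core motif within this window and Fshb holds 1. The core motif occurs in 35.2% of all 32851 promoter windows of this length.
Prl (chr13:27057320-27057569, plus strand): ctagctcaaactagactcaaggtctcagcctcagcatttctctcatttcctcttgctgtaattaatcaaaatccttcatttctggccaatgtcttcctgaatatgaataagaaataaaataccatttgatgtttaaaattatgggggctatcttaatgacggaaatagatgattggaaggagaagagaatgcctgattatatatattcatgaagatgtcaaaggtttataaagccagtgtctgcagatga
Fshb (chr2:107059652-107059901, minus strand): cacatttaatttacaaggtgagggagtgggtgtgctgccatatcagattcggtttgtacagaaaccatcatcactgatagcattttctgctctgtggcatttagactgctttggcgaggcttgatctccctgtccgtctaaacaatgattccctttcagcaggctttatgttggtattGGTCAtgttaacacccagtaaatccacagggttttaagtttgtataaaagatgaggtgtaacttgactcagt

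Gonadotropes take their cue from gonadotropin-releasing hormone and from activin, a local ligand that raises Fshb transcription. Inhibins, follistatin and antagonists of bone morphogenetic proteins (BMPs) act on the signals of activin or of the related BMPs. Of 19 genes tested on the list of gonadotrope regulators, 3 were higher in females and 6 lower (47.4%, against 9.71% of all genes). The hormone genes Fshb and Lhb are on this list and among the lower ones. Of 46 genes of activin, inhibin and BMP signalling, 3 were higher and 5 lower (17.4%). The leading member was Grem1, a secreted antagonist of BMPs. Grem1 (chr2:113746164-113758646) had 0.431, 0.317, 0.540 and 0.199 CPM in females and 15.2, 10.4, 8.32 and 10.6 CPM in males. With 54 counts in all females and 1771 in all males it was 29.9-fold higher in males, a log2 difference of -4.87 (SE 0.28, adjusted p = 1.04e-05). Gata2, a transcription factor of gonadotropes and thyrotropes, had 18.8, 12.7, 16.4 and 12.3 CPM in females and 47.7, 36.7, 39.1 and 39.7 CPM in males (-1.43, SE 0.14, adjusted p = 2.51e-04). Inhbb, which encodes the beta B subunit of activin and inhibin, had 19.2, 18.1, 17.2 and 21.7 CPM against 29.2, 30.8, 31.2 and 33.5 CPM (-0.71, SE 0.08, adjusted p = 6.55e-04). All 3 genes thus stood on the side of Fshb, with no overlap between the sexes.

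On the ligand side Inhba, the beta A subunit, was also lower in females at a log2 difference of -1.07, a call lost without female 1, female 2, female 3, male 1, male 2 or male 4 (adjusted p up to 0.106). Tgfbr3l, a co-receptor for inhibin B, differed by -0.36, a call that ended without female 2, where the difference was under the size limit. Chrdl1, a BMP antagonist on the X chromosome and so outside these counts, had 9.62, 10.2, 12.3 and 6.997 CPM against 30.1, 14.2, 26.7 and 17.2 CPM (-1.17, SE 0.24, adjusted p = 0.0122). Further calls on the lower side were Fstl1 (-0.40), lost without female 4, male 2 or male 3 (adjusted p up to 0.0618), and Lhx4 (-2.66), a LIM homeodomain factor under 1 CPM in every control mouse. The 3 genes of the list that were higher in females were Id1, Id2 and Id3, targets of BMP signalling that inhibit basic helix-loop-helix factors. Id1 had 27.6, 19.7, 16.95 and 19.8 CPM in females and 7.51, 8.81, 4.80 and 7.09 CPM in males (1.57, SE 0.19, adjusted p = 7.82e-04). Id2 and Id3 followed at 0.65 (adjusted p = 0.00350) and 1.12 (adjusted p = 0.00392). The lowest female exceeded the highest male for each of the 3. Among the gonadotrope regulators higher in females were Foxl2 (0.45) and Dusp1 (1.21), a phosphatase of MAP kinases. The call of Foxl2 was lost without female 2, female 3, female 4, male 2, male 3 or male 4 (adjusted p up to 0.0841), and that of Dusp1 without female 2, female 4, male 1, male 3 or male 4 (adjusted p up to 0.0874). Gnrhr, the receptor for gonadotropin-releasing hormone, had 63.3, 59.3, 59.9 and 49.2 CPM in females and 74.95, 53.1, 51.9 and 50.3 CPM in males, and Nr5a1, the gonadotrope nuclear receptor, 46.1, 28.1, 36.1 and 29.7 and 35.0, 45.5, 33.6 and 38.9 CPM. Neither was called (adjusted p = 0.976 and 0.654).

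The Grem1 start region, shown as the leading gene on the male side, holds 2 core motifs in 250 bases, and 8.16% of all windows hold 2 or more.
Grem1 (chr2:113758649-113758898, minus strand): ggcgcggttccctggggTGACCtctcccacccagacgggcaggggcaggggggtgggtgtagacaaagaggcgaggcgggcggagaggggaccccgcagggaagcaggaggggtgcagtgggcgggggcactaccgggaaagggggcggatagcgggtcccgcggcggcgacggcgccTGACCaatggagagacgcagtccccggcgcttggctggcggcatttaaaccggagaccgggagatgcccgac

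Of 17 receptors for hypothalamic hormones tested, 1 was higher in females, 6 were lower and 10 were not called. The share called was 41.2%, against 9.71% of all genes. The median log2 difference was -0.345 over the list against 0.01 over all genes. Drd4, a dopamine receptor of the D2 class, was counted far less in females. It had 0.0821, 0.136, 0.0569 and 0.114 CPM in females, 13 counts in all, and 2.37, 2.03, 1.78 and 1.77 CPM in males, 309 counts, with a log2 difference of -4.37 (SE 0.27, adjusted p = 1.37e-05). Drd2, the receptor through which dopamine restrains prolactin release, was not called at 162, 122, 142 and 132 and 60.96, 123, 118 and 122 CPM. Its lowest value was that of male 1.

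Of the receptors that set growth hormone release, Ghrhr, Sstr2, Sstr3 and Sstr5 were called lower in females and Sstr1 higher. Ghrhr, the receptor for growth hormone-releasing hormone, had 187, 147, 229.8 and 146 CPM in females and 340.1, 257, 338 and 289 CPM in males (-0.78, SE 0.15, adjusted p = 0.00810). Somatostatin, which restrains growth hormone release, acts through Sstr1 to Sstr5. Sstr5 had 9.13, 12.2, 11.9 and 12.7 CPM in females and 18.5, 20.6, 23.3 and 22.7 CPM in males (-0.90, SE 0.12, adjusted p = 0.00113). Sstr2 had 1.95, 3.04, 3.21 and 2.45 CPM against 5.35, 4.31, 6.69 and 6.21 CPM (-1.09, SE 0.19, adjusted p = 0.00556), and missed the threshold when all 28 mice were in the fit (adjusted p = 0.0543). Both receptors were lower in every female than in any male. Sstr3 was lower by a smaller amount (-0.34), a call lost without female 2, female 4, male 1 or male 4 (adjusted p up to 0.0566). Sstr1 went the other way, with 54.9, 57.5, 55.2 and 52.1 CPM in females and 16.1, 45.5, 27.7 and 25.3 CPM in males (0.94, SE 0.24, adjusted p = 0.0298), and its call was lost without female 2, female 4, male 3 or male 4 (adjusted p up to 0.0877).

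Adcyap1r1, the receptor for the peptide PACAP, had 12.7, 13.5, 20.7 and 12.1 CPM in females and 34.8, 32.98, 26.2 and 29.4 CPM in males (-1.06, SE 0.17, adjusted p = 0.00295). Female 3 was the highest female and still below every male. The corticotrope receptors Crhr1 and Avpr1b were not called. Crhr1, the receptor for corticotropin-releasing factor on corticotropes, had 22.02, 13.7, 21.7 and 13.9 CPM in females and 20.9, 17.9, 15.6 and 17.9 CPM in males (-0.02, SE 0.17, adjusted p = 0.967). Avpr1b, the vasopressin receptor of corticotropes, had 6.48, 3.49, 4.41 and 3.04 and 3.39, 2.61, 1.81 and 3.41 CPM (0.63, SE 0.26, adjusted p = 0.153). Oxtr, the oxytocin receptor, ranged widely among females, at 2.57, 6.94, 2.22 and 16.6 CPM, against 0.762, 2.03, 2.21 and 2.39 CPM in males (1.95, SE 0.62, adjusted p = 0.0710).

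**Figure D4:**
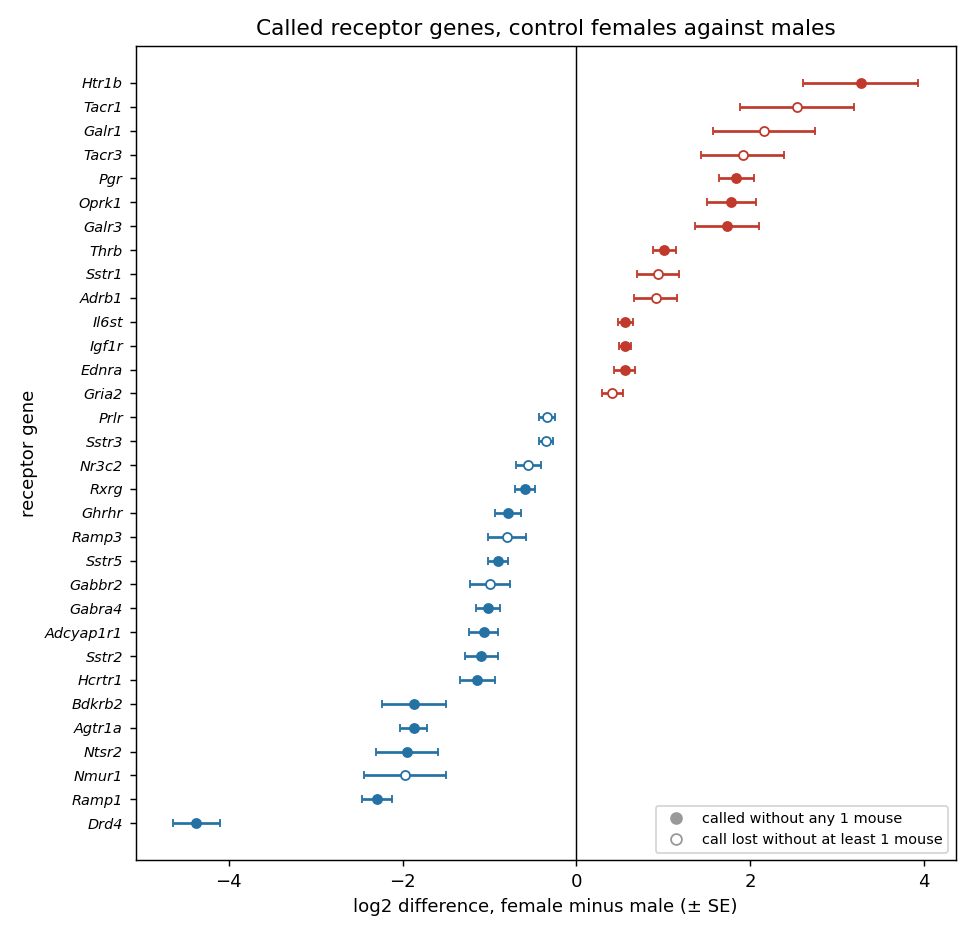
Log2 difference (female minus male) with its SE for 32 called autosomal receptor genes of 5 lists, without Cckar, whose male level rests on 1 count. Filled points mark the 20 genes that stayed called when any 1 mouse was left out, and Drd4, Ramp1, Agtr1a and Bdkrb2 are among the filled points on the lower side.

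Neuropeptide receptors were called in both directions, 7 higher and 7 lower of 27 tested (51.9%). Among the lower genes, Ramp1, the partner protein that forms the receptor for calcitonin gene-related peptide, had 4.43, 4.80, 4.98 and 2.99 CPM in females and 25.5, 21.2, 17.4 and 19.8 CPM in males (-2.29, SE 0.17, adjusted p = 4.56e-05). Agtr1a (chr13:30336441-30382867), the type 1 receptor for angiotensin II, had 15.8, 12.4, 19.9 and 12.4 CPM in females and 56.3, 49.4, 65.9 and 51.1 CPM in males, 3.68-fold more, with a log2 difference of -1.87 (SE 0.15, adjusted p = 9.29e-05). The values of the sexes were several-fold apart in both genes. Bdkrb2, a bradykinin receptor, had 5.44, 5.08, 3.04 and 2.36 CPM against 26.4, 10.2, 10.7 and 10.3 CPM (-1.86, SE 0.37, adjusted p = 0.00992), with male 1 far above the other males. Ntsr2, a neurotensin receptor, had 0.985, 1.45, 1.48 and 0.796 CPM against 7.85, 3.28, 2.60 and 4.08 CPM (-1.95, SE 0.36, adjusted p = 0.00650), and male 1 was again the highest. Without male 1 the adjusted p was 0.00742 for Bdkrb2 and 0.00486 for Ntsr2. Hcrtr1, an orexin receptor, differed by -1.14 (adjusted p = 0.00523). Nmur1 (-1.97) and Ramp3 (-0.80) lost their calls when single mice were left out, with adjusted p up to 0.0645 and 0.109. Female 3, female 4, male 1 or male 3 each ended the call of Nmur1, and any mouse but female 2 and male 2 that of Ramp3.

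Higher in females were receptors for cholecystokinin, opioids, galanin and tachykinins. Cckar, the cholecystokinin A receptor, had 2.05, 7.30, 2.22 and 16.6 CPM in females, 922 counts in all. Among males it was counted once, in male 2 at 0.0278 CPM, and was at 0 in the other 3 (adjusted p = 0.00116). Females 2 and 4 had the higher values. DESeq2, which shrinks such differences, also gave a small adjusted p (3.09e-10) but a log2 difference of 0.30, under the limit used here. Oprk1, the kappa opioid receptor, had 1.60, 2.72, 2.33 and 1.99 CPM in females and 0.762, 0.806, 0.569 and 0.334 CPM in males (1.78, SE 0.28, adjusted p = 0.00315). Galr3, a galanin receptor, had 3.37, 6.44, 4.04 and 11.2 CPM in females and 1.21, 1.95, 2.35 and 2.08 CPM in males (1.73, SE 0.37, adjusted p = 0.0143). No female was as low as a male for either receptor. Galr1 (2.16), Tacr1 (2.54) and Tacr3 (1.92), the last 2 being receptors for substance P and neurokinin B, were near or under 2 CPM. Calls of these 3 were lost when single mice were left out, Galr1 without female 4, male 1, male 2, male 3 or male 4 (adjusted p up to 0.0965), Tacr1 without female 2, female 4, male 1, male 3 or male 4 (adjusted p up to 0.0949) and Tacr3 without female 1, female 4 or male 4 (adjusted p up to 0.0856). Ednra, an endothelin receptor, was higher in females by 0.56 (adjusted p = 0.0154).

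Among 24 secreted neuropeptides and their binding proteins, 2 were higher and 2 lower (16.7%, against 9.71% of all genes). The widest gap was that of Crhbp, the binding protein that sequesters corticotropin-releasing factor. Crhbp (chr13:95431371-95444924) had 84.5, 103, 56.7 and 164 CPM in females, 14144 counts, and 0.487, 0.111, 0.0356 and 0.0239 CPM in males, 29 counts, with a log2 difference of 9.06 (SE 0.53, adjusted p = 1.04e-05). Male 1 held most of the male counts, and without it the log2 difference was 10.73. Gal, the galanin gene and a lactotrope peptide, had 10.7, 47.9, 8.56 and 75.5 CPM in females and 5.12, 7.56, 5.76 and 4.92 CPM in males (2.61, SE 0.63, adjusted p = 0.0240). Females 2 and 4 were several times above females 1 and 3. The Gal call was lost without female 2, female 4, male 1, male 3 or male 4 (adjusted p up to 0.0741). Pnoc, the precursor of nociceptin, had 0.0821, 0.0907, 0.0853 and 0.199 CPM in females and 1.19, 0.889, 0.462 and 1.29 CPM in males (-3.06, SE 0.42, adjusted p = 0.00153). Grp, gastrin-releasing peptide, had 0.246, 0.0907, 0.455 and 0.199 CPM in females and 1.42, 1.78, 0.925 and 1.46 CPM in males (-2.42, SE 0.36, adjusted p = 0.00221). Both peptides were lower in every female, at levels under 2 CPM in all 8 mice.

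The Crhbp window, shown because the sexes were so far apart in this gene, holds 1 core motif.
Crhbp (chr13:95444832-95445081, minus strand): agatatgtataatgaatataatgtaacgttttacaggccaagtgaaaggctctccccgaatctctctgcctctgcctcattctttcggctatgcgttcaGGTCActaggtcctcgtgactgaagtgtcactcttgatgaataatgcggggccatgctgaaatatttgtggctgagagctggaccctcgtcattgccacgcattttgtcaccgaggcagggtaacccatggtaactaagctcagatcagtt

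Of 38 receptors for small transmitters, 3 were higher and 2 lower (13.2%, against 9.71% of all genes). Gabra4, a subunit of the GABA A receptor, had 13.5, 10.7, 12.6 and 10.4 CPM in females and 22.4, 18.5, 28.6 and 26.5 CPM in males (-1.02, SE 0.14, adjusted p = 0.00154). Gabbr2, of the GABA B receptor, had 2.96, 2.22, 4.38 and 2.33 CPM against 7.05, 4.61, 5.19 and 6.99 CPM (-0.998, SE 0.23, adjusted p = 0.0197), a call lost without female 2, female 4 or male 4 (adjusted p up to 0.0620). Both GABA receptor genes were lower in all females than in all males. Htr1b, a serotonin receptor, had 0.739, 2.27, 0.313 and 2.47 CPM in females and 0.127, 0.167, 0.0711 and 0.191 CPM in males (3.27, SE 0.66, adjusted p = 0.0107), and 18% of its exon bases overlap a gene on the opposite strand. Females 2 and 4 again had the highest values. Adrb1, the beta 1 adrenergic receptor, was higher by 0.91 with overlapping groups, and Gria2, an AMPA receptor subunit, by 0.42. Leaving out single mice ended the Adrb1 call for all but female 3 and male 4 (adjusted p up to 0.110) and the Gria2 call for all but males 1 and 2 (up to 0.126).

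Among steroid receptors, that for progesterone was called higher in females and that for estrogen was not called. Of 17 nuclear hormone receptors tested, 2 were higher and 2 lower (23.5%, against 9.71% of all genes). Pgr (chr9:8899833-8968611), the progesterone receptor, had 25.6, 39.8, 24.7 and 46.9 CPM in females and 8.85, 10.7, 8.96 and 9.64 CPM in males, a log2 difference of 1.84 (SE 0.20, adjusted p = 4.51e-04). Esr1, the estrogen receptor alpha, had 144, 136, 145 and 139 CPM and 148, 134, 115 and 117 CPM and was not called (0.13, SE 0.08, adjusted p = 0.347). Every female was above every male for Pgr, while the sexes overlapped for Esr1. Thrb, a thyroid hormone receptor, had 152, 185, 138 and 217 CPM against 81.5, 88.2, 94.7 and 78.6 CPM (1.01, SE 0.13, adjusted p = 0.00113). Rxrg, a retinoid X receptor, was lower in females at 40.5, 31.9, 44.5 and 32.5 CPM against 62.5, 49.5, 59.1 and 53.7 CPM (-0.59, SE 0.12, adjusted p = 0.00970). Nr3c2, the mineralocorticoid receptor, had 28.2, 24.8, 27.8 and 20.3 CPM against 44.99, 35.7, 39.4 and 28.2 CPM (-0.55, SE 0.14, adjusted p = 0.0345). This call was lost without female 2, female 4, male 1, male 2 or male 3 (adjusted p up to 0.0905). Nr3c1, the glucocorticoid receptor, overlapped at 66.4, 85.8, 75.2 and 65.1 and 121, 100.1, 82.5 and 70.1 CPM (-0.35, SE 0.16, adjusted p = 0.172). Among the treated mice it was called lower in females, as given below.

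Genes known to respond to estrogen were called in both directions, 4 higher and 3 lower of 18 tested (38.9%). Without male 1 there were 3 higher and 1 lower, as Gal, Ramp3 and Pttg1 lost their calls. Greb1 (chr12:16670615-16800886), a cofactor of the estrogen receptor, had 110.2, 159, 106 and 189 CPM in females and 42.3, 49.01, 33.2 and 31.9 CPM in males (1.85, SE 0.20, adjusted p = 4.72e-04). The higher genes were Greb1, Pgr, Prl and Gal. Susd3, which is induced by estrogen in breast cells, had 0.677, 0.499, 0.597 and 0.512 CPM against 1.61, 1.58, 1.53 and 1.36 CPM and was lower in females (-1.39, SE 0.18, adjusted p = 0.00130). Ramp3 and Pttg1, the securin gene, were the other lower genes, and the Pttg1 difference (-0.33) was lost when any mouse but female 1 or female 3 was left out (adjusted p up to 0.0959). Cited1, on the X chromosome, had 6.14, 14.2, 4.98 and 18.8 CPM in females and 1.80, 3.61, 1.99 and 3.25 CPM in males (2.04, SE 0.42, adjusted p = 0.0122). In Pgr, Greb1, Gal and Cited1 the females 2 and 4 lay above females 1 and 3.

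The windows before Pgr and Greb1 are shown as those of classical estrogen targets, with 0 and 1 core motif. The full palindrome (GGTCA, any 3 bases, TGACC) is in 0.0639% of all windows and in none of the 60 windows found for the 81 named genes, and the palindrome of the glucocorticoid receptor (AGAACA, any 3 bases, TGTTCT) is in 0.00913% and again in none. Some of these windows lie far from the annotated start of the gene, such as those of Pde4d (204229 bases) and Pde7b (176750 bases). The core motif was in 28 of the 60 windows (46.7%, against 35.2% of all windows), a share that was not tested. Such matches describe the letters of these windows and say nothing of binding.
Pgr (chr9:8899583-8899832, plus strand): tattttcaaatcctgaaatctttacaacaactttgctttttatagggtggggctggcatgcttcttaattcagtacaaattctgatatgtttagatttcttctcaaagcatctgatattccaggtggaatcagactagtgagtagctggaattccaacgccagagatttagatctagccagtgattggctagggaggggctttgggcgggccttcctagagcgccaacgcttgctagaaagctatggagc
Greb1 (chr12:16800887-16801136, minus strand): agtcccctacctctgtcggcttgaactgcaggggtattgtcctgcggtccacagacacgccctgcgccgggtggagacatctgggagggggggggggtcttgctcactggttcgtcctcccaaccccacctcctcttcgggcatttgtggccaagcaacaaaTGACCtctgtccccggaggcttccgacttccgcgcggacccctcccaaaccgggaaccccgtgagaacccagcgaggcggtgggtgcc

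Of 14 genes for enzymes of steroid and thyroid hormones, 1 was called (7.14%, under the 9.71% of all genes). Akr1c14, a hydroxysteroid dehydrogenase that converts steroids such as dihydrotestosterone and dihydroprogesterone, had 98.5, 232, 124 and 196 CPM in females and 19.1, 43.9, 18.2 and 9.76 CPM in males (2.84, SE 0.43, adjusted p = 0.00249). The lowest female had more than the highest male, although males varied several-fold. Of 14 receptors for hormones and cytokines, 2 were higher and 1 was lower (21.4%, against 9.71% of all genes). Igf1r, the receptor for insulin-like growth factor 1, had 120.1, 122, 112 and 108 CPM in females and 84.4, 82.6, 74.3 and 71.6 CPM in males (0.56, SE 0.07, adjusted p = 0.00108). Il6st, the shared signalling chain of interleukin 6 receptors, had 169, 187, 163 and 220.2 CPM against 126, 131, 125 and 119 CPM (0.57, SE 0.09, adjusted p = 0.00352). Both stood higher in every female. Prlr, the prolactin receptor, was lower in females by a small amount (-0.34), and its call was lost when any mouse but male 1 or male 4 was left out (adjusted p up to 0.106).

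Growth factor signalling gave 1 higher and 3 lower genes of 55 (7.27%, under the 9.71% of all genes). Without male 1 the list had 2 higher and 4 lower. Ntrk3, the receptor for neurotrophin 3, had 44.5, 40.2, 34.6 and 46.8 CPM in females and 80.96, 57.5, 73.9 and 78.5 CPM in males (-0.81, SE 0.12, adjusted p = 0.00237). Nrg4, a ligand of ERBB4, had 4.15, 4.99, 4.81 and 4.72 CPM against 2.43, 2.81, 1.99 and 1.84 CPM (1.03, SE 0.16, adjusted p = 0.00270). Egf (-0.52) and Igfbp7 (-0.49), a binding protein of insulin-like growth factors, were lower in females. The call of Egf was lost without female 2, female 4, male 1 or male 3 (adjusted p up to 0.0780), and that of Igfbp7 without female 1, female 2, male 3 or male 4 (adjusted p up to 0.0826). Of 39 genes of Wnt and Notch signalling, 1 was higher and 4 were lower (12.8%, against 9.71% of all genes). Wnt4, a Wnt ligand, had 5.44, 7.25, 5.18 and 5.09 CPM in females and 1.99, 3.50, 3.59 and 2.67 CPM in males (0.97, SE 0.20, adjusted p = 0.0122). Hey1, a target of Notch, had 19.1, 18.6, 19.9 and 17.8 CPM against 27.8, 27.6, 23.2 and 27.9 CPM (-0.50, SE 0.08, adjusted p = 0.00294). No female overlapped a male for Wnt4 or Hey1. The lower genes Lgr4 (-0.40), Hes6 (-0.40) and Notch2 (-0.38) lost their calls when single mice were left out, Lgr4 without female 2, female 4 or male 2 (adjusted p up to 0.0635), Hes6 without female 2, female 4, male 2, male 3 or male 4 (adjusted p up to 0.0775) and Notch2 in all fits but that without female 1 (adjusted p up to 0.104).

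Downstream of the receptors, 5 G protein, cyclase and phosphodiesterase genes were higher and 7 lower of 54 tested (22.2%), and 8 were higher and 7 lower without male 1. Cyclic AMP is made by adenylyl cyclases and broken down by phosphodiesterases. Adcy2 and Adcy7, which encode adenylyl cyclases, were both lower in females. Adcy2 had 20.8, 20.7, 23.8 and 17.9 CPM in females and 43.95, 33.3, 42.4 and 39.6 CPM in males (-0.94, SE 0.11, adjusted p = 5.49e-04), and Adcy7 had 11.1, 9.38, 12.9 and 11.1 CPM against 18.9, 15.9, 17.7 and 20.4 CPM (-0.71, SE 0.11, adjusted p = 0.00298). Phosphodiesterases were split. Pde8b, which is selective for cyclic AMP, had 10.5, 12.1, 9.19 and 10.3 CPM in females and 21.8, 18.6, 22.4 and 20.8 CPM in males (-0.99, SE 0.10, adjusted p = 2.55e-04). Pde7b, of the same selectivity, had 52.9, 58.6, 38.3 and 50.7 CPM in females and 14.3, 25.2, 22.4 and 19.5 CPM in males (1.31, SE 0.17, adjusted p = 0.00125). The 2 enzymes stood in opposite directions, neither with overlap. The kinase subunit genes Prkca (-0.56), Prkcb (-0.59) and Prkar2b (-0.66) and the phosphodiesterase Pde5a (-0.47) were lower, while Prkce (0.62), Camk2a (0.62), Gnal (0.34) and Gng4 (0.36) were higher. Prkar2b lost its call without female 2 (adjusted p up to 0.0506), Gnal without female 2, male 1, male 3 or male 4 (adjusted p up to 0.0672) and Gng4 without female 2, female 4 or male 4 (adjusted p up to 0.0781). Among 24 RGS proteins, receptor kinases and arrestins, which end G protein signals, 2 were higher and 1 was lower (12.5%, against 9.71% of all genes). Without male 1 there were 2 higher and 3 lower. Arrb2, beta-arrestin 2, had 29.9, 35.1, 31.3 and 34.9 CPM in females and 24.7, 26.1, 24.8 and 24.2 CPM in males (0.39, SE 0.07, adjusted p = 0.00569), a call lost with scaling by library totals alone. Rgs5 had 32.6, 33.4, 40.1 and 33.1 CPM against 54.3, 46.7, 50.7 and 42.1 CPM (-0.48, SE 0.09, adjusted p = 0.00966). Rgs17 (0.37) was at the threshold (adjusted p = 0.0496) and lost the call when any mouse but male 1 was left out (up to 0.133). The Rgs17 call was also lost with library totals alone (adjusted p = 0.156) and with each of the 3 other choices of filter on low counts (adjusted p from 0.0533 to 0.0587).

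Transcription factors of the pituitary lineages were higher in 5 and lower in 2 of 21 cases (33.3%). Neurod4, a helix-loop-helix factor of the developing gland, had 60.9, 147, 87.2 and 151 CPM in females and 47.2, 50.01, 39.9 and 34.2 CPM in males (1.38, SE 0.26, adjusted p = 0.00796). Six6, a homeodomain factor, had 133, 129, 133 and 128 CPM against 83.6, 108, 96.8 and 102 CPM (0.42, SE 0.08, adjusted p = 0.00585). All females were above all males for both factors. Neurod1 was higher by 0.66, a call lost without female 2, female 3, female 4, male 2, male 3 or male 4 (adjusted p up to 0.0772), and Foxl2, Gata2 and Lhx4 are given above. Pou1f1, the factor shared by somatotropes, lactotropes and thyrotropes, had 116, 113, 116 and 101 and 109.8, 85.9, 106 and 104 CPM with overlapping groups (0.13, SE 0.08, adjusted p = 0.336).

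The machinery that packs and cuts prohormones was lower in females in 6 and higher in 1 of 17 genes (41.2%). Scg2, the granin secretogranin II, had 1795, 1374, 1814 and 1412 CPM in females and 4253, 3483, 3705 and 3968 CPM in males (-1.27, SE 0.11, adjusted p = 1.62e-04). Pcsk1, the convertase that makes corticotropin from its precursor, had 129, 114, 106 and 90.2 CPM against 240.5, 188, 187 and 199 CPM (-0.89, SE 0.12, adjusted p = 0.00118). The groups were apart in both. Pam, which amidates peptides, differed by -0.38 (adjusted p = 0.00324), and Cpe, a carboxypeptidase, by -0.39 (adjusted p = 0.00726). Chga, chromogranin A (-0.61), and Qpct (-0.55) were lower as well. Chga lost its call without female 2 (adjusted p up to 0.0517) and Qpct without female 2, female 4, male 1 or male 2 (adjusted p up to 0.0940). The higher gene was Pcsk6, with 244, 508, 258 and 625 CPM in females and 237, 203, 205 and 206 CPM in males (0.94, SE 0.27, adjusted p = 0.0484). Its call was lost when any mouse but female 1 or female 3 was left out (up to 0.134). Pcsk2, the convertase that yields melanotropin, had 994, 649, 738 and 795 and 221, 906, 781 and 1020.3 CPM and was not called (0.12, SE 0.36, adjusted p = 0.870).

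Outside the lists, the genes with the smallest p in each direction included several of known function. Rxfp1 (chr3:79641611-79737880), the receptor for relaxin, had 37.6, 71.2, 44.1 and 80.5 CPM in females and 0.762, 0.584, 0.391 and 0.0239 CPM in males, a log2 difference of 7.01 (SE 0.44, adjusted p = 1.56e-05). Gpr52, an orphan receptor that raises cyclic AMP, had 9.91, 14.9, 11.4 and 12.7 CPM in females and 1.31, 1.61, 2.10 and 1.58 CPM in males (2.90, SE 0.17, adjusted p = 1.04e-05). Dmrta1, a DM domain factor, had 11.9, 15.5, 13.4 and 23.1 CPM in females against 1.19, 1.28, 1.21 and 1.15 CPM (3.73, SE 0.22, adjusted p = 1.04e-05). The 4 male values of Dmrta1 lay close together, far under the females. Myo5c, a class V myosin, had 33.8, 36.8, 35.1 and 41.2 CPM against 14.6, 13.1, 13.9 and 12.8 CPM (1.43, SE 0.08, adjusted p = 1.04e-05). Vwde and C2cd4c were higher in females by 2.36 and 1.74.

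Of the genes lower in females, A2m, the protease inhibitor alpha 2 macroglobulin, had 15.02, 11.2, 12.7 and 11.9 CPM in females and 43.04, 58.7, 38.4 and 48.0 CPM in males (-1.88, SE 0.14, adjusted p = 4.53e-05). Lcn2, the iron carrier lipocalin 2, had 17.2, 15.8, 10.2 and 13.03 CPM against 48.5, 53.4, 50.6 and 58.5 CPM (-1.91, SE 0.14, adjusted p = 4.72e-05). Serpine2, an inhibitor of thrombin, had 26.1, 28.9, 32.7 and 20.2 CPM against 125, 90.3, 90.9 and 101 CPM (-1.92, SE 0.15, adjusted p = 7.40e-05). Each of the 3 was more than 3-fold higher in males. Serpinb1a, an inhibitor of neutrophil proteases, differed by -2.39 (adjusted p = 8.23e-05), with 0.944, 0.997, 1.08 and 0.654 CPM in females and 4.93, 3.83, 4.80 and 5.63 CPM in males.

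Marker levels of other cells moved with sex in part. Summed over 4 red blood cell genes, females lay between 1278 and 1660.1 CPM and males between 1768 and 3215 CPM. The highest of the males was male 1. Of these 4, Alas2 on the X chromosome was called lower in females, a call lost without male 1 (adjusted p = 0.0577), where Hba-a2 was called instead. The sum over 6 genes of dividing cells ranged from 3.76 to 12.5 CPM in females and from 12.6 to 16.2 CPM in males. Of these 6, only Ube2c was called (-1.07), and none without male 1 (adjusted p = 0.0615 for Ube2c). Endothelial markers summed to between 163 and 180.2 CPM in females and 172 and 218 CPM in males, with Emcn and Pecam1 of 5 called lower in females, and 1 of 5 without male 1. Macrophage markers summed to 96.3 to 101 CPM in females and 103 to 122 CPM in males, and none of 6 was called. Fibroblast and pericyte markers summed to 345 to 508 CPM and 296 to 345 CPM, with Col1a2 called higher and Dcn lower in females. This sum follows Col1a2, which alone had 194 to 353 CPM in females and 123 to 143 CPM in males. Dcn went the other way, with 74.4 to 97.2 CPM and 112 to 138 CPM. The part of these cells in the receptor and signalling differences was not tested.

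Removing male 1 brought further list genes over the threshold. Adcy8, an adenylyl cyclase, had 2.81, 8.57, 3.47 and 11.04 CPM in females and 3.85, 0.667, 0.178 and 0.644 CPM in males, where male 1 was the highest. Its adjusted p went from 0.0796 to 0.00520 without male 1. Mc3r, a melanocortin receptor, had 13.6, 13.1, 9.90 and 13.7 CPM in females and 2.07, 8.002, 8.32 and 7.83 CPM in males, where male 1 was the lowest, and its adjusted p went from 0.0977 to 0.0114. Vip, vasoactive intestinal peptide, went from 0.0801 to 0.0141 and Pde4d, a cyclic AMP phosphodiesterase, from 0.202 to 0.0103, both higher in females. Fzd5, a Wnt receptor, went from 0.106 to 0.0116 and Bambi, a decoy receptor for BMP and activin signals, from 0.0924 to 0.0155, both lower in females. The hormone calls (Prl, Gh, Fshb, Lhb and Cga) stood without male 1, with log2 differences of 2.36, -1.16, -2.85, -0.55 and -0.43.

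The 20 treated mice are other animals of the same strain and age, and the difference between their sexes was fitted with treatment as a covariate. Among them 1970 autosomal genes were called (12.7%), 981 higher in females (6.33%) and 989 lower (6.38%). Of the 1504 genes called in controls, 1488 could be tested, 1459 had the same direction (98.1%), 964 were called in it (64.8%) and 0 were called in the opposite one. Of autosomal genes not called in controls, 73.6% had the same direction and 6.55% were called in it. The median size of the 1488 differences was 0.66 in controls and 0.46 in treated mice, but the genes had been chosen for their size in controls. Prl differed by 1.92, Gh by -0.99, Fshb by -2.18, Crhbp by 8.42, Grem1 by -4.02 and Drd4 by -5.70 log2 units in treated mice. Tshb, which was not called in controls, was lower in treated females by -0.57 log2 units (adjusted p = 0.00604). Nr3c1, also not called in controls, was called lower in treated females at -0.34 log2 units (adjusted p = 0.00575). Gal was not called in treated mice (0.95, adjusted p = 0.151). Dusp1 had a value of the other sign there (-0.51, adjusted p = 0.422). A test of whether the sex difference itself differed between control and treated mice called 0 of 16367 genes in edgeR, with 843 at an unadjusted p under 0.05 and a smallest adjusted p of 0.76.

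**Figure D5:**
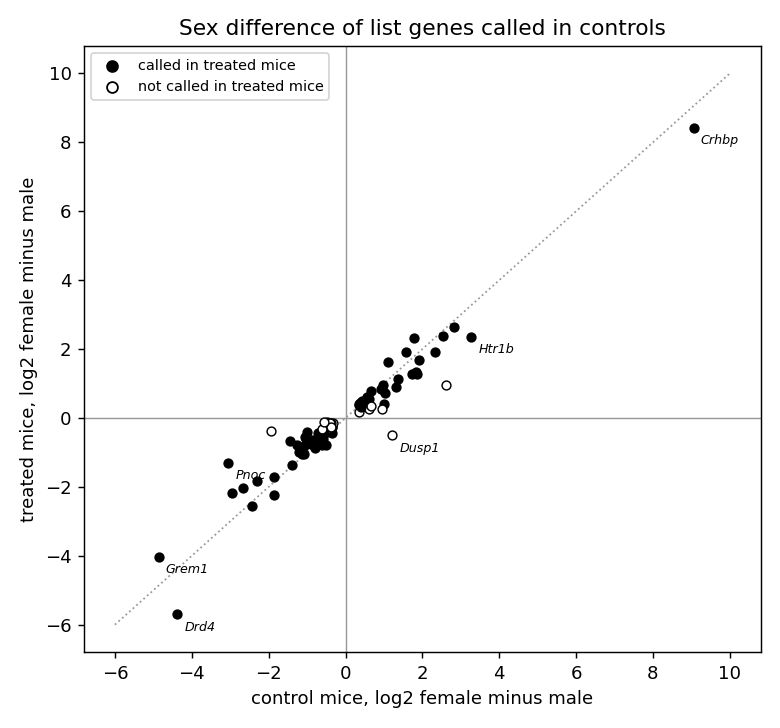
Log2 difference (female minus male) in control mice on the horizontal axis and in treated mice on the vertical axis for 90 autosomal list genes called in controls and tested in both, without Cckar, with the line of equal values dotted. Of these, 89 have the same sign in both, 67 (filled) are called in treated mice, and Dusp1 is the exception in sign.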

How the data were processed

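Whole pituitaries of 4 female and 4 male home cage control mice were compared. RNA was made into stranded mRNA libraries. The authors used MapSplice for alignment to mm10 and HTSeq for counting on UCSC gene models (version 0.9.1 in the submitters' processing notes, mode intersection-nonempty). The strand setting is not given in the sources used here. The deposited values are raw counts of reads per gene. A deposited table of normalized counts was not used. Groups and replicate numbers come from the labels, and 0 columns of other series were present. Control mice of 1 sex differed by more than counting noise in every pair (lowest chi-square per degree of freedom 12).

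Counts were fitted with edgeR 4.0.16 (quasi-likelihood, sex as the term, filterByExpr, TMM) in R 4.3.3, and p-values were adjusted over all 17663 genes tested. The filter was set by sex, so a gene with counts in 1 sex alone could be tested, such as Crhbp, Cckar and Drd4. For such genes a wide gap between the sexes goes with how they entered the test. A gene was called at an adjusted p of at most 0.05 and a difference of at least 1.25-fold. The SE is the log2 difference divided by the root of F. Shares of Gh, Prl and Pomc were compared by a two-sided exact permutation test over all 70 splits. The treated mice were fitted with treatment and sex as terms. The scripts were tested on simulated data. Alternatives were DESeq2 1.42.0 (a fold shrunken toward 0), its size factors, library totals, filters of 10 counts in every mouse, of mean TPM 1 and none, all 28 mice, a replicate block, a lobe score as covariate, robust estimation, no fold limit, and each mouse left out.

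Positions come from GENCODE M21 (GRCm38), which placed 23035 genes by symbol, with 781 more by RefSeq synonym and 244 by RefSeq symbol, while 8516 had no place and 18 were ambiguous. Promoters come from RefSeq and matched 60 of 81 named genes. Exons of 18 of 80 named genes overlap another gene, in 11 cases one with counts of its own, and reads of such pairs may be shared. Named genes are the 7 hormones, up to 4 called genes of each list by p, the 8 genes per direction with the smallest p and no overlap, 8 stress and steroid genes, and up to 6 list genes called only with or only without male 1. Other called list members are named so that counts are complete, and a few that were not called were chosen after their values were seen. Some genes that count in these lists are not reported here. The members and lists were chosen with earlier results of these data known.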

Additional observations from a re-analysis of the deposited data

Results flagged for a closer look

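A single mouse stood far from the other 3 of its sex in 9 of 160 groups of 4 examined (Dixon's criterion at 95%), and chance flags about 1 in 20 groups. Adcyap1r1 was high in female 3 (20.7 CPM, next 13.5 CPM), as was Rgs5 (40.1 CPM, next 33.4 CPM), and Mc3r was low in the same female (9.90 CPM, next 13.1 CPM). Mc3r was also low in male 1 (2.07 CPM, next 7.83 CPM), where Adcy8 was high (3.85 CPM, next 0.667 CPM). Pnoc was high in female 4 (0.199 CPM, next 0.0907 CPM) and Wnt4 in female 2 (7.25 CPM, next 5.44 CPM). Hey1 was low in male 3 (23.2 CPM, next 27.6 CPM). Cckar was counted in male 2 alone among the males (0.0278 CPM, next 0 CPM). The test of whether the sex difference differed between control and treated mice called no gene after adjustment. With 4 control mice per sex and only 2 restrained males without PSD, such differences could go uncalled.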

How the results depend on the processing

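The 1504 autosomal calls became 1674 with DESeq2 and between 1345 (mean TPM of at least 1) and 1848 (all 28 mice) under the other fits that keep the limits and every mouse. Leaving out each mouse gave 1039 (without female 2) to 1654 (without female 1 or female 3), with 459 to 782 genes higher and 580 to 896 lower in females, and the list genes called went from 68 to 101. List genes ranged from 27 to 42 on the higher and from 41 to 62 on the lower side. With library totals alone 471 genes were higher and 1005 lower, against 687 and 817. Without the fold limit 1834 genes were called. No named gene changed direction where it was called. Calls lost in fits of every mouse also included Adrb1 (adjusted p = 0.0628 with library totals, 0.0828 with the lobe score), Nr3c2 (0.0740) and Egf (0.0545) with the lobe score, Prlr with all 28 mice (0.106) and by its shrunken fold in DESeq2, and Gal with robust estimation (0.0789).

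Over named genes and alternatives, 1439 values kept their side of the threshold, 68 lost it and 17 gained it. Fits in which a gene was not tested are outside these counts. Drd4, Htr1b, Pnoc and Adcy8 were tested in 17 of 19 alternatives. Cckar, Oprk1, Grem1, Crhbp, Grp, Gpr52 and Rxfp1 were tested in 18. With Gh, Prl and Pomc left out of the denominator, the difference in share (female minus male) was -15.5 percentage points for Gh and 21.7 for Prl, against -11.5 and 14.7. Leaving out a mouse gave -12.8 to -10.7 for Gh, 13.9 to 15.5 for Prl, -1.11 to 0.64 for Pomc and 2.44 to 4.22 for their sum.

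The labels do not say whether a female and a male of the same replicate number were handled together. With 4 mice per sex, the values below cannot decide it. Deviations of mice with the same number correlated at -0.0696, -0.0499, 0.00279 and 0.0915, and 0 females correlated best with the male of their own number. With the replicate block 1447 genes were called, and the calls of Hes6 (adjusted p = 0.0596) and Rgs17 (adjusted p = 0.0561) were lost. Depth limits genes at a few counts, such as Cckar, Drd4 and Nmur1, and 4 mice per sex without a known cycle stage limit the rest.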

Other observations

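The 4 females were not alike. Among the 687 genes called higher in females, females 2 and 4 held the 2 highest female values for 413 genes (60.1%), and among the 817 genes called lower, females 1 and 3 did so for 426 (52.1%). Over all autosomal genes tested these pairs did so for 27.3% and 28.4%, and each of the other 4 pairs for 9.36% to 12.9%. Pgr, Greb1, Gal, Cited1, Akr1c14, Neurod4 and Rxfp1 had their 2 highest values in females 2 and 4. The order of the females with respect to cycle stage is not known, and its part was not tested.

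Outside the autosomes, 73 of 575 tested genes of the X chromosome and 4 of 4 of the Y chromosome were called between the sexes, as were 69 of 1596 genes without a unique place in the annotation.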
